A study of Homo sapiens with 6 samples.

Results

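The genes examined encode 38 centromere and kinetochore proteins, chosen by gene symbol from a list drawn up with earlier results of these data known. All 38 were found among the 30618 genes with counts and the 30275 genes with FPKM. FPKM stands for fragments per kilobase of transcript, scaled to the mapped fragments of the library. They were divided by role into 17 inner centromere genes, 17 outer kinetochore genes, 3 genes of CENPA loading and CENPJ, which carries the CENP name but encodes a centriole protein. The cells were ARPE-19, a human line derived from retinal pigment epithelium, and both groups were kept in 50 mM glucose to model diabetic retinopathy. The NC group (3 libraries) received a non-targeting control siRNA, and the siEIF1 group (3 libraries) received an siRNA against EIF1, a translation initiation factor that helps the ribosome to choose the start codon. The comparison asks how the transcriptome differs when EIF1 is depleted in high glucose. Cells in normal glucose were not analysed here, so the values describe the knockdown and not the glucose. All cells come from a single cell line, and a single siRNA against EIF1 is given in the methods.

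The kinetochore is the protein assembly that joins each chromosome to the microtubules of the mitotic spindle. Its foundation is a nucleosome in which the histone variant CENPA replaces ordinary histone H3, and a constitutive network of CENP proteins sits on this nucleosome through the whole cell cycle. In mitosis the outer layer is added, in which the NDC80 complex grips the microtubule while the KNL1 and MIS12 complexes connect it to the inner layer and recruit the spindle checkpoint. New CENPA is deposited once per cycle, after mitosis, by a chaperone and a licensing complex. Many of these genes are known to be transcribed mainly in late cell cycle phases, through promoter elements called CHR (cell cycle genes homology region) and CCAAT boxes. E2F sites are a further promoter element of cell cycle genes. In a bulk sample, fewer cycling cells and less RNA per cycling cell cannot be told apart.

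The promoter window of each gene, 250 bases before to 50 bases after its start in RefSeq (GRCh38.p14), was available for 32 of the 38 genes, and it was searched on both strands for TTTGAA and TTCGAA, which are common forms of the CHR. TTCGAA reads the same on both strands. The windows below are shown because they carry the match nearest to the start in the 9 genes that fell to less than 0.5 of their NC level and hold one, followed by ZW10, the gene that rose, and CENPC, whose level did not pass the test. Each is 30 bases long, is written 5′ to 3′ on the strand of its gene, and has the match in capitals. TTCAAA is the reverse complement of TTTGAA. NDC80 holds a further match, TTCAAA, that begins 3 bases before its start, as near as the one in capitals. It is left in lower case in the window.
CENPA (chr2:26786026-26786055, plus strand): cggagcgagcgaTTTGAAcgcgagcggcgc
NDC80 (chr18:2571548-2571577, plus strand): gagaatttcaaaTTCGAAcggctttggcgg
NUF2 (chr1:163321958-163321987, plus strand): ggaggcggcaagTTTGAAaagtgatgacgg
SPC25 (chr2:168890416-168890445, minus strand): aagtgcactaggTTTGAAatcggaaagttg
SKA1 (chr18:50375066-50375095, plus strand): ggcgcggcgggcggTTTGAAttttgcttac
SKA3 (chr13:21176538-21176567, minus strand): ccggcgccgagaTTCAAActagtggcggga
CENPF (chr1:214603215-214603244, plus strand): ccggtggcggctgcgggcagTTTGAAttag
OIP5 (chr15:41332573-41332602, minus strand): gcctggcgtgtaTTCGAAaggaaggcgccg
HJURP (chr2:233854629-233854658, minus strand): gacgcaaatttgTTTGAAaggcccaatcag
ZW10 (chr11:113773899-113773928, minus strand): gaagcaacgaacTTTGAAaacaactaagga
CENPC (chr4:67545576-67545605, minus strand): tgtgtctccgggTTCAAAcccaggcacagg

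The libraries held from 26499929 to 31431479 counts. EIF1 itself had an FPKM of 294.35, 281.08 and 281.28 in the NC libraries and of 24.28, 22.68 and 23.50 after knockdown, which is 8.22% of the NC mean. Of 11 markers of retinal pigment epithelium, RPE65 and TTR were not found among the genes with counts. The summed FPKM of the other 9 ran from 522.67 to 541.53 in the NC and from 565.44 to 611.42 in the siEIF1 libraries. KRT18 and KRT8, 2 keratins, made up most of this sum and rose (edgeR adjusted p = 0.00442 and 0.00950). TYR lay near 0 (mean FPKM 0.00667 in both groups) and was not tested. RLBP1, a retinoid-binding protein of this epithelium, had a mean FPKM of 0.237 in NC and 0.68 in siEIF1, and rose (edgeR adjusted p = 0.00102). BEST1, a chloride channel of this epithelium, stood at 78.8% and MITF, a transcription factor of pigment cells, at 95.8% of the NC mean FPKM, and neither passed the test. PMEL, OTX2 and SERPINF1, at 98.8%, 105% and 113% of the NC mean FPKM, did not pass it either. The part of these differences in the results below was not tested. Summed FPKM was at most 0.26 for 4 endothelial markers in any library, 0.97 for the single blood cell marker analysed, CD68, and 0.34 for the single photoreceptor marker analysed, NRL.

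Of the 38 genes, 19 were called lower in the siEIF1 group, at a Benjamini-Hochberg adjusted p under 0.05 from edgeR's quasi-likelihood test over all 16749 genes tested and a fold change below 0.5. Over all genes tested, 1.31% were called in this direction. The 38 genes were chosen with earlier results of these data known, so this contrast is a description and not independent evidence. None of the 38 was called higher with a fold change above 2, against 0.4% of all genes, and the count was also 0 with DESeq2 and at an unadjusted p under 0.05. A further 8 fell with an adjusted p under 0.05 but a smaller fold change, so that 27 of 38 fell (10.4% of all genes), and 1, ZW10, rose (10.2% of all genes). At an unadjusted p under 0.05, 29 were lower and 2, ZW10 and PMF1, were higher. The share of all genes at this unadjusted limit was not taken, so these counts have no background beside them. For 10 genes the adjusted p was 0.05 or more. The log2 fold change was below 0 for 35 of the 38 genes, against 49.4% of all genes, and its median was -1.04 over the 38 genes and 0.0033 over all genes tested. All 38 passed the filter on low counts. The siEIF1 libraries lay below all NC libraries in 30 of the genes, where 19% of all genes tested did so, and above all NC libraries in ZW10 alone, where 18.2% of all genes did so. The count of 19 was 19 to 20 when any single library was left out, and 2 when log2(FPKM + 1) was tested with limma. That scale compresses the change of genes whose FPKM is near 1, and 26 of the genes still fell on it with an adjusted p under 0.05.

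**Figure D1:**
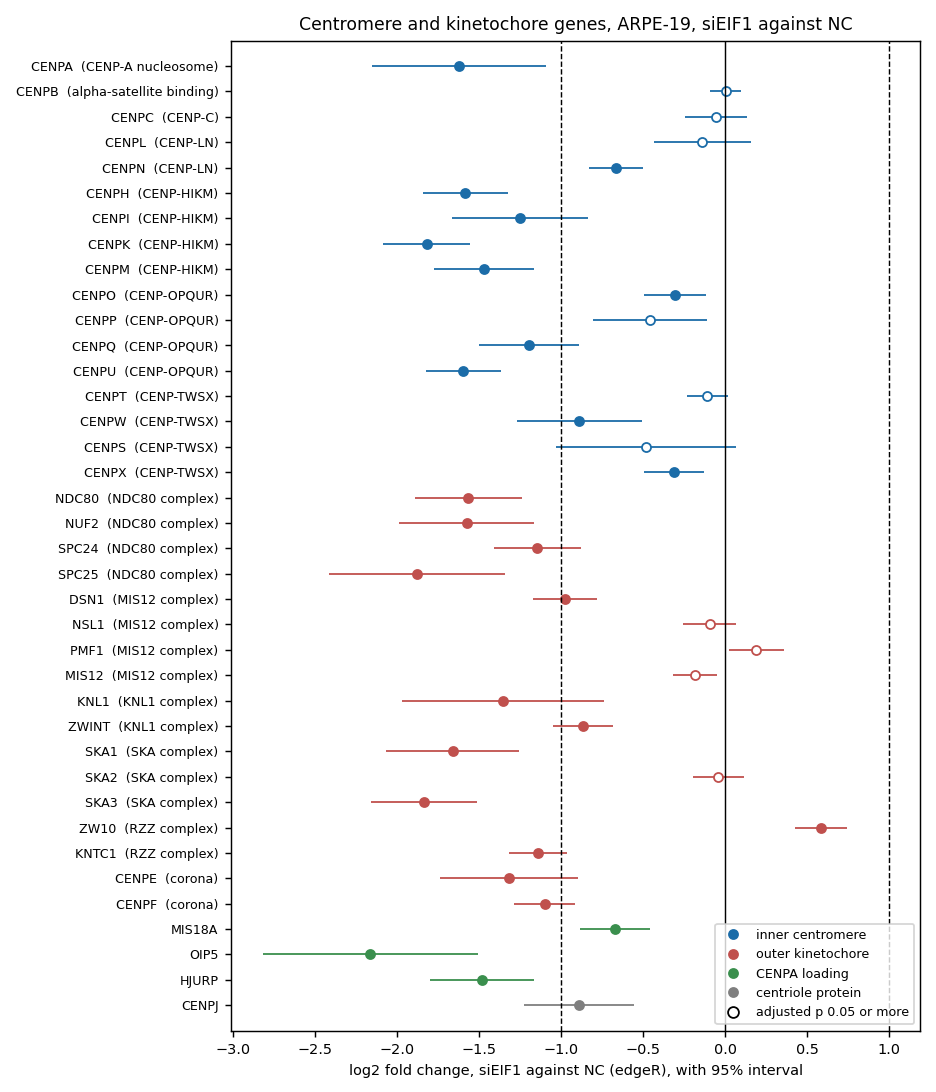
Log2 fold change of each of the 38 genes (siEIF1 against NC) from edgeR with its 95% interval, coloured by role and labelled with the complex. Filled points have an adjusted p under 0.05, open points do not, and dashed lines mark a fold change of 2 in each direction; values run from -2.16 for OIP5 to 0.58 for ZW10.

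By role, 7 of 17 inner centromere genes, 10 of 17 outer kinetochore genes and 2 of 3 CENPA loading genes were called lower. The median log2 fold change was -0.67 for the inner centromere, -1.14 for the outer kinetochore and -1.48 for CENPA loading. These medians are descriptions, and the difference between the roles was not tested. Within each role the genes were spread widely, from -1.82 to 0.0037 in the inner centromere, from -1.88 to 0.58 in the outer kinetochore and from -2.16 to -0.67 in CENPA loading. Across the libraries, the median difference of the 38 genes from the NC mean was -0.999, -1.03 and -1.02 on a log2 scale in siEIF1 replicates 1 to 3, so the shift was of like size in all 3. In the plot of single libraries, the lower values of the siEIF1 group are seen in all 3 columns.

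**Figure D2:**
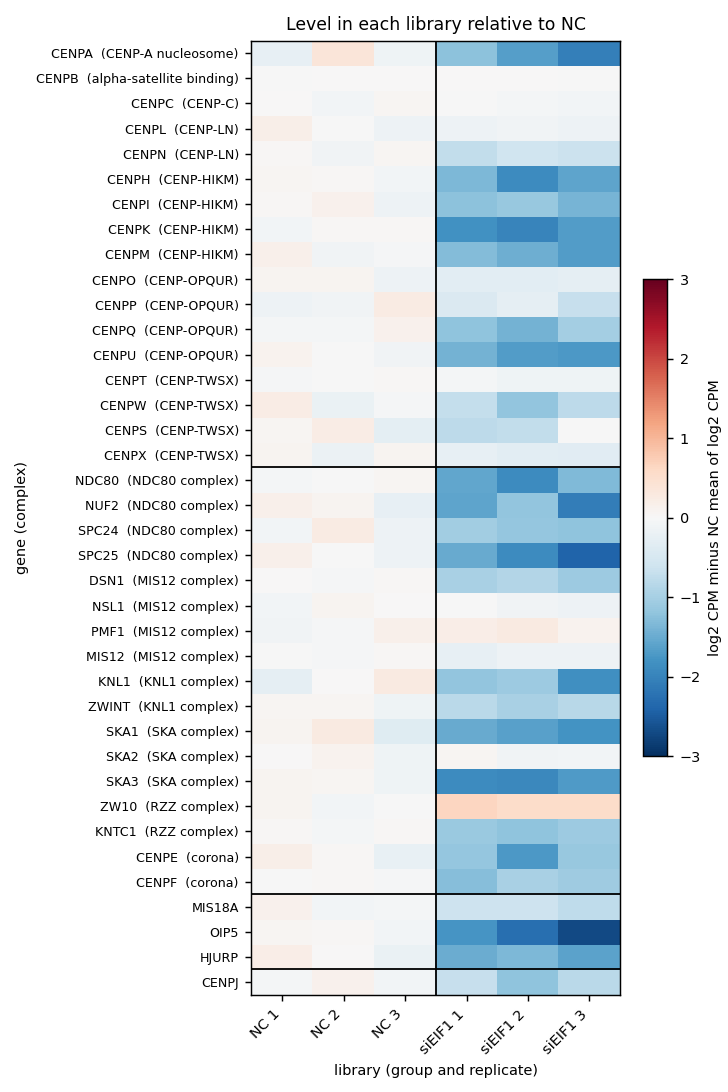
Log2 CPM (library-scaled counts, TMM) of each gene in each library minus its mean log2 CPM in the NC libraries, with genes in rows grouped by role and libraries in columns. The 3 siEIF1 columns are blue in most rows, with the lowest cell at -2.70, while ZW10 is the row that is clearly red, up to 0.65.

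Among the genes of the centromeric nucleosome and its loading, CENPA and 2 of its 3 loading factors, HJURP and OIP5, were called lower, and the other, MIS18A, fell by less. CENPA (ENSG00000115163.15), the histone H3 variant that marks the centromere, had counts of 66, 107 and 76 in the NC and of 39, 27 and 21 in the siEIF1 libraries. The groups did not overlap, although the NC libraries themselves were spread. Its log2 fold change was -1.62 (standard error 0.246, edgeR adjusted p = 0.000456), a level 3.08-fold lower. HJURP, the chaperone that carries new CENPA to the centromere, had an FPKM of 1.64, 1.43 and 1.27 in the NC and of 0.50, 0.55 and 0.48 in the siEIF1 libraries. This is a log2 difference of -1.48 (standard error 0.147, edgeR adjusted p = 1.50e-05).

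OIP5, also known as MIS18B, licenses centromeres for CENPA loading together with MIS18A. OIP5 had the lowest log2 fold change of the 38 genes, at -2.16 (standard error 0.304, edgeR adjusted p = 0.000261). Its counts were only 36, 38 and 35 in the NC and 12, 8 and 6 in the siEIF1 libraries, so its 95% interval was wide, from -2.82 to -1.51. It was left out when at least 10 counts were required in every library. MIS18A, its partner, fell less, from FPKM values of 5.87, 5.03 and 5.20 to 3.44, 3.35 and 3.17, and the log2 fold change was -0.67 (standard error 0.0983, edgeR adjusted p = 0.000361). The intervals of the partners did not overlap, since that of MIS18A ran from -0.88 to -0.46. OIP5 was present at 0.167 ± 0.011 (SD, n = 3) of the FPKM of MIS18A in NC and at 0.058 ± 0.016 (SD, n = 3) in siEIF1.

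In contrast to CENPA, the DNA-binding and scaffold proteins at the base of the centromere showed little change. CENPB, which binds a short sequence in alpha-satellite DNA, was the most abundant of the 38 genes, with an FPKM of 37.04, 37.38 and 38.75 in the NC and 37.79, 36.51 and 37.57 in the siEIF1 libraries. The groups overlapped, and the 95% interval of its log2 fold change ran from -0.091 to 0.099, around a value of 0.0037 (standard error 0.0440) whose sign changed with the scaling. CENPC, which bridges the CENPA nucleosome to the outer kinetochore, had counts of 250, 251 and 275 against 285, 261 and 261 (log2 fold change -0.056, interval -0.25 to 0.14, edgeR adjusted p = 0.715).

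The CENPA nucleosome is read by CENPN, the partner of CENPL. CENPN fell from an FPKM of 2.82 ± 0.19 to 1.75 ± 0.07 (SD, n = 3), a log2 fold change of -0.67 (edgeR adjusted p = 5.11e-05). CENPL was 0.663 ± 0.071 against 0.593 ± 0.0058 (SD, n = 3) and did not pass the test (log2 fold change -0.14, interval -0.43 to 0.16). The ratio of CENPL to CENPN was 0.256, 0.25 and 0.203 in the NC and 0.353, 0.331 and 0.333 in the siEIF1 libraries, higher in each of the latter.

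The CENP-HIKM group, which joins the CENPC side of the network to the CENP-T side, fell as a whole, with 4 of 4 genes called. CENPK had counts of 235, 273 and 268 in the NC and of 82, 68 and 87 in the siEIF1 libraries. At 28.0% of the NC mean FPKM, it had the lowest log2 fold change of the inner centromere, -1.82 (standard error 0.122, edgeR adjusted p = 6.82e-07). CENPH had an FPKM of 5.59, 5.41 and 5.12 against 2.09, 1.40 and 1.81, and a log2 difference of -1.59 (standard error 0.120, edgeR adjusted p = 1.43e-06). No library of one group reached the other in either gene. CENPM had an FPKM of 3.57, 2.97 and 3.22 against 1.29, 1.13 and 1.03 (log2 fold change -1.47, standard error 0.141, edgeR adjusted p = 1.11e-05). CENPI, the least abundant of the 4, had counts of 72, 82 and 67 against 35, 35 and 30 (log2 fold change -1.25, standard error 0.193, edgeR adjusted p = 0.000512). Relative to CENPH, the FPKM ratios of CENPK and CENPM had overlapping ranges in the NC and siEIF1 libraries, with 0.606 ± 0.049 against 0.664 ± 0.126 (SD, n = 3) for CENPM. That of CENPI overlapped narrowly on the rounded FPKM, and did not overlap when taken from the counts per length, from 0.0557 to 0.0626 in NC and from 0.0632 to 0.0987 in siEIF1.

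The CENP-OPQUR group was divided. CENPU, which binds the mitotic kinase PLK1, had an FPKM of 3.67, 3.36 and 3.22 in the NC and of 1.26, 1.02 and 1.05 in the siEIF1 libraries, a log2 difference of -1.60 (standard error 0.107, edgeR adjusted p = 6.61e-07). CENPQ, which with CENPU forms the microtubule-facing arm of the group, had an FPKM of 2.79, 2.77 and 3.22 against 1.26, 1.06 and 1.46 (log2 fold change -1.20, standard error 0.141, edgeR adjusted p = 6.54e-05). Both were called. CENPO and CENPP, which form the core of the same group, moved less. CENPO had a log2 fold change of -0.31 (interval -0.49 to -0.12, edgeR adjusted p = 0.0233), and its adjusted p was 0.05 or more without NC replicate 1 (adjusted p = 0.0850), NC replicate 2 (0.0894), siEIF1 replicate 1 (0.0506) or siEIF1 replicate 2 (0.0738). With limma its adjusted p was 0.0532 on log2(FPKM + 0.1) and 0.0540 on log2(FPKM + 1). Over all alternatives it ran from 0.0134 to 0.0894. CENPP, at -0.46 (interval -0.80 to -0.11), had an adjusted p of 0.0595 in edgeR. It passed with library totals as the only scaling (0.0468), with no count filter (0.0262) and with a term for the replicate number (0.0493). Among the alternatives its adjusted p ran up to 0.252. The FPKM of CENPO was 0.597 ± 0.034 of that of CENPU in NC and 1.48 ± 0.170 in siEIF1 (SD, n = 3), so the order of their levels turned.

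The CENP-TWSX group holds histone-fold proteins that form a nucleosome-like particle, and none of its 4 genes passed the fold limit, whether with the adjusted or the unadjusted p of edgeR. CENPW, the histone-fold partner of CENPT, fell most, with an FPKM of 4.47, 3.34 and 3.82 against 2.32, 1.62 and 2.24 (log2 fold change -0.89, standard error 0.176, edgeR adjusted p = 0.00300). CENPT itself, which recruits NDC80 directly, had counts of 822, 893 and 914 against 939, 835 and 858 and did not pass (log2 fold change -0.11, interval -0.24 to 0.015). CENPX fell slightly, to 79.3% of its NC mean FPKM (log2 fold change -0.31, edgeR adjusted p = 0.0195), and its adjusted p was 0.05 or more without NC replicate 1 (adjusted p = 0.0777), NC replicate 3 (0.0904) or siEIF1 replicate 2 (0.0674). The range over all alternatives was 0.00679 to 0.0904.

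CENPS shares its locus with a read-through transcript, CENPS-CORT, so that reads of one can be counted for the other. CENPS had counts of 48, 57 and 40 against 31, 30 and 51, and siEIF1 replicate 3 lay within the NC range (log2 fold change -0.48, edgeR adjusted p = 0.211). Without that library its value was -0.78 (adjusted p = 0.0428). The read-through row had counts of 216, 199 and 178 against 131, 118 and 119, and fell (log2 fold change -0.80, edgeR adjusted p = 0.000617). With both rows summed, a choice made after these values were seen, CENPS had a log2 fold change of -0.73 (adjusted p = 0.000692), while the adjusted p reached 0.455 among the other alternatives.

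In the outer kinetochore, the NDC80 complex fell in all 4 subunits. NDC80 and NUF2 form the end that binds the microtubule. NDC80 had counts of 162, 178 and 187 in the NC and of 67, 50 and 75 in the siEIF1 libraries (log2 fold change -1.57, standard error 0.151, edgeR adjusted p = 1.18e-05). NUF2 had counts of 190, 195 and 154 against 67, 82 and 46 (log2 fold change -1.58, standard error 0.191, edgeR adjusted p = 7.97e-05). Their folds were alike, with intervals from -1.89 to -1.24 and from -1.99 to -1.17. SPC24 and SPC25 form the opposite end, which docks on the inner layer. SPC25 had counts of 68, 65 and 58 against 25, 18 and 13, the lowest log2 fold change of the outer kinetochore at -1.88 (standard error 0.249, edgeR adjusted p = 0.000167). SPC24 had counts of 264, 357 and 269 against 159, 137 and 138 (log2 fold change -1.15, standard error 0.123, edgeR adjusted p = 2.90e-05). SPC24 was the most abundant subunit per length in every library, and SPC25 stood at 0.338 ± 0.059 of it in NC and at 0.201 ± 0.049 in siEIF1 (SD, n = 3).

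The MIS12 complex, the bridge between the inner layer and NDC80, behaved differently, with none of its 4 subunits past the fold limit, at the adjusted or the unadjusted p of edgeR, and with DSN1 the only one that fell at an adjusted p under 0.05. DSN1, the subunit through which Aurora B kinase regulates the tie to CENPC, had an FPKM of 3.90, 3.73 and 4.02 against 1.95, 2.02 and 1.85. Its log2 fold change of -0.98 (standard error 0.0900, edgeR adjusted p = 7.94e-06) lay just short of the fold limit, and it passed the limit without NC replicate 2 (-1.01), without siEIF1 replicate 2 (-1.03) and with library totals as the only scaling. MIS12 had an FPKM of 6.60, 6.51 and 6.97 against 5.56, 5.82 and 6.04, groups that did not overlap, with a log2 fold change of -0.18 and an adjusted p of 0.0528 in edgeR. That p was 0.0352 with library totals as the only scaling and 0.0425 with a term for the replicate number. With limma it was 0.0456 on log2(FPKM + 0.1) and 0.0477 on log2(FPKM + 1). It ran up to 0.179 among the alternatives.

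NSL1 overlapped between the groups, at an FPKM of 1.10 ± 0.068 against 1.01 ± 0.049 (SD, n = 3; log2 fold change -0.095, interval -0.25 to 0.065). PMF1 had a positive log2 fold change of 0.19 (interval 0.021 to 0.36, edgeR adjusted p = 0.108), which passed without NC replicate 3 (0.27, adjusted p = 0.0480) and had an adjusted p of up to 0.318 among the other alternatives. PMF1 also has a read-through row, PMF1-BGLAP, whose log2 fold change was 0.14 (edgeR adjusted p = 0.163). The FPKM of DSN1 relative to MIS12 was 0.580 ± 0.009 in NC and 0.335 ± 0.025 in siEIF1, and that of PMF1 relative to MIS12 was 0.977 ± 0.069 and 1.27 ± 0.085 (SD, n = 3).

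KNL1, the large scaffold that recruits the checkpoint kinase BUB1, was the least abundant of the 38 genes at an FPKM of 0.09, 0.11 and 0.13 against 0.05, 0.05 and 0.03. It was called lower (log2 fold change -1.35, standard error 0.287, edgeR adjusted p = 0.00463), on counts of 29 to 45 in the NC and 11 to 18 in the siEIF1 libraries. On log2(FPKM + 1) its adjusted p was 0.0640 with limma, the highest of its alternatives. ZWINT, which binds KNL1 and helps to place the RZZ complex, fell from an FPKM of 5.91 ± 0.35 to 3.19 ± 0.24 (SD, n = 3; log2 fold change -0.87, edgeR adjusted p = 1.27e-05).

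The SKA complex tracks the ends of microtubules and strengthens the grip of NDC80. SKA3 had counts of 162, 169 and 148 in the NC and of 48, 44 and 53 in the siEIF1 libraries (log2 fold change -1.83, standard error 0.150, edgeR adjusted p = 2.71e-06). SKA1 had counts of 142, 172 and 111 against 55, 47 and 43 (log2 fold change -1.66, standard error 0.188, edgeR adjusted p = 4.81e-05). SKA2, the subunit that holds both together, did not move with them. It had counts of 722, 820 and 694 against 862, 730 and 758, and its log2 fold change of -0.042 (interval -0.20 to 0.12) changed sign without NC replicate 2. Per length SKA2 was the most abundant subunit, with SKA1 at 0.210 ± 0.029 and SKA3 at 0.231 ± 0.010 of it in NC and at 0.068 ± 0.005 and 0.067 ± 0.008 in siEIF1 (SD, n = 3).

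The RZZ complex holds the checkpoint proteins and dynein at unattached kinetochores, and its 2 genes listed here went in opposite directions. ZWILCH, the remaining subunit, is among the further kinetochore genes described below, and it fell (log2 fold change -0.69, edgeR adjusted p = 0.000115). KNTC1, the large ROD subunit, had counts of 441, 442 and 467 in the NC and of 232, 203 and 226 in the siEIF1 libraries (log2 fold change -1.14, standard error 0.0821, edgeR adjusted p = 1.09e-06). ZW10 (ENSG00000086827.9, chr11:113733187-113773735, minus strand) had counts of 360, 347 and 359 against 625, 545 and 560. Every siEIF1 library lay above every NC library, and the log2 fold change was 0.58 (standard error 0.0742, edgeR adjusted p = 0.000119), or 1.50-fold higher. ZW10 also works outside mitosis, in a membrane-tethering complex between the Golgi and the endoplasmic reticulum. It rose under each of the alternatives that refitted it, and the FPKM ratio of KNTC1 to ZW10 went from 0.326 ± 0.009 to 0.098 ± 0.005 (SD, n = 3).

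Of the corona, the fibrous outermost layer, both genes fell. CENPE, a kinesin that walks chromosomes to the spindle equator, had counts of 117, 114 and 94 against 54, 34 and 53 (log2 fold change -1.32, standard error 0.195, edgeR adjusted p = 0.000378). CENPF, a large coiled-coil protein that accumulates in late cell cycle phases, had counts of 535, 591 and 557 against 259, 301 and 287 (log2 fold change -1.10, standard error 0.0859, edgeR adjusted p = 1.88e-06). CENPF and KNTC1 lay nearest to the fold limit among the called genes, and DSN1 and CENPJ lay nearest on the other side. CENPJ, which sets the length of new centrioles, had counts of 131, 159 and 137 against 98, 64 and 87 (log2 fold change -0.89, standard error 0.156, edgeR adjusted p = 0.00128) and reached the limit without siEIF1 replicate 1.

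**Figure D3:**
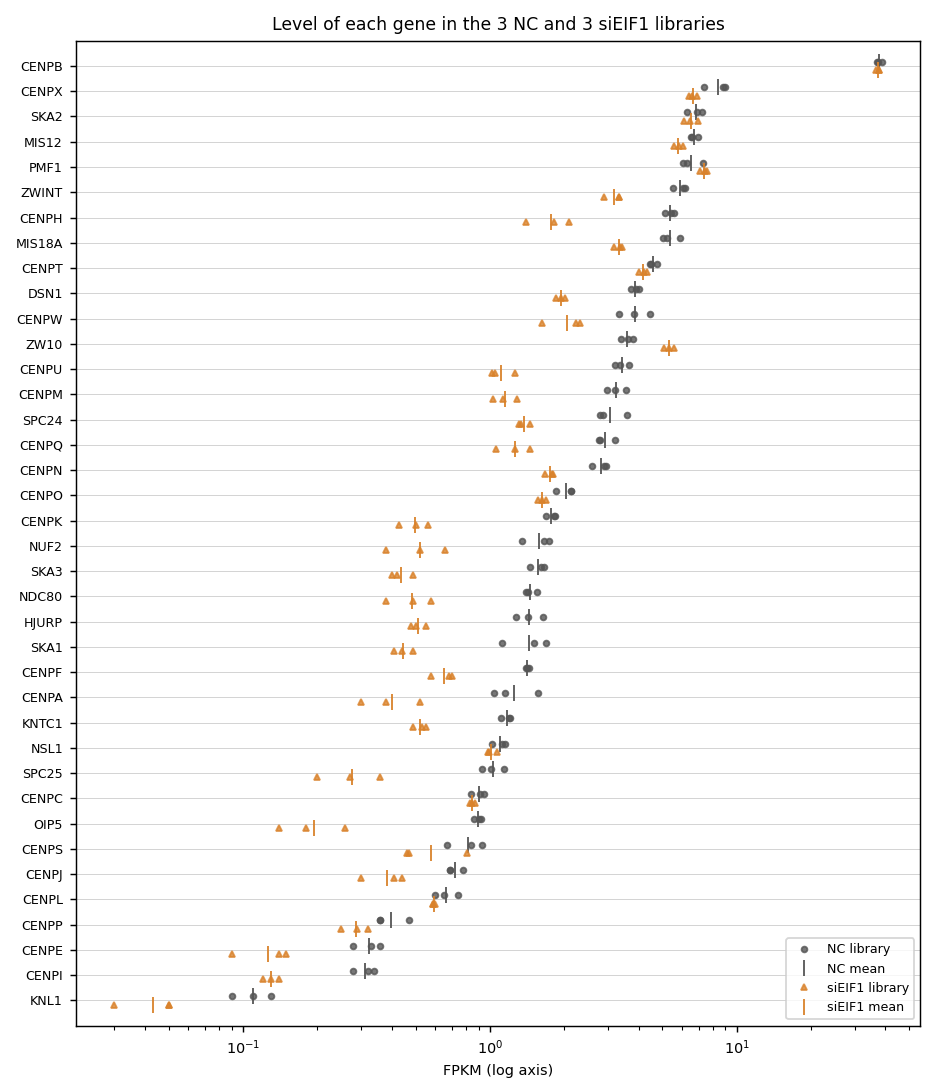
FPKM (log axis) of each gene in the 3 NC libraries (circles) and the 3 siEIF1 libraries (triangles), with the group means as bars, ordered by the NC mean. Levels run from CENPB (NC mean 37.7) to KNL1 (NC mean 0.11), and among the 5 most abundant genes CENPB, SKA2 and PMF1 have overlapping symbols while CENPX and MIS12 do not.

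In the order of NC levels per length, CENPB led at a mean FPKM of 37.7, followed by CENPX at 8.38, SKA2 at 6.81, MIS12 at 6.69 and PMF1 at 6.55. The NC libraries of the last 3 overlapped, so their order was not resolved. The place of PMF1 also depends on the reads counted for its read-through row, which had a mean FPKM of 22.3 in NC. At the low end were KNL1 at 0.11, CENPI at 0.313, CENPE at 0.323 and CENPP at 0.397. The 19 genes called lower had NC mean FPKM values from 0.11 to 5.37 with a median of 1.45. The 10 genes that did not pass the test ran from 0.397 to 37.7 with a median of 2.83. The ranges overlapped, so low and moderate levels were found in both sets.

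**Figure D4:**
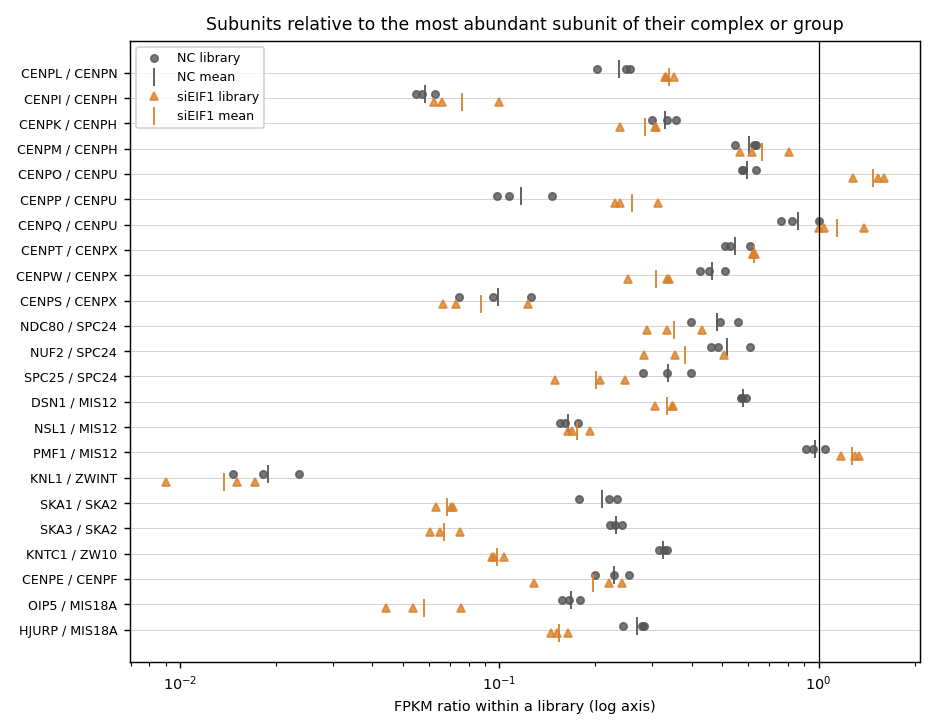
FPKM of each subunit divided by that of the most abundant subunit of its complex or group (by NC mean) in the same library, on a log axis, with NC libraries as circles, siEIF1 libraries as triangles and group means as bars. A ratio is free of library scaling. Among others, SKA1, SKA3, KNTC1, OIP5, HJURP and DSN1 are displaced to the left in the siEIF1 libraries, and CENPO to the right, past a ratio of 1. The group means of CENPQ and PMF1 also pass 1.

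Of 20 further genes that act at the kinetochore (the spindle checkpoint, the chromosomal passenger complex and partners of the complexes above), 8 were called lower and 0 higher by edgeR and by DESeq2. With an adjusted p under 0.05 and no fold limit, 14 fell, against 10.4% of all genes tested, and 0 rose, against 10.2%. By DESeq2, 0 rose as well. At an unadjusted p under 0.05, 15 were lower and 0 higher, and the share of all genes at that limit was not taken. The median log2 fold change was -0.68. The 5 with the smallest p-values were MAD2L1, a checkpoint protein (log2 fold change -1.27), KIF2C, a microtubule-depolymerizing kinesin (-1.89), BIRC5, a passenger protein (-1.42), TRIP13, which remodels MAD2 (-1.26), and CDCA8, a passenger protein that binds the centromere (-1.48). BIRC5 and PLK1, both called lower, were also chosen for display by the study on these libraries. The study also reported differential expression of both by RT-qPCR on separate biological replicates, which were not analysed here. In the present values none of the 20 genes is independent evidence, since the list was drawn up with earlier results of these data known. The share of genes called lower in this list, 40%, stands beside 50% of the 38 genes and 1.31% of all genes tested.

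Matches to the CHR letters were compared with the results of the test. TTTGAA or TTCGAA was found in 9 of 15 promoter windows of genes called lower (60%) and in 1 of 9 windows of genes that did not pass the test (11.1%), where 16.6% of all 27305 promoters in the RefSeq table hold a match. It was also found in 4 of 7 windows of genes that fell by less (57.1%), which are CENPN, CENPO, CENPW and ZWINT with a match and CENPX, DSN1 and CENPJ without. Over all 17 windows of genes not called lower, ZW10 included, 6 held a match (35.3%). The match began 18 bases before the start in CENPA and 3 bases before it in SKA3 and SPC25. It began 3 bases after the start in NDC80, 16 in NUF2, 34 in SKA1, 40 in CENPF and 1 in OIP5. HJURP held its match farther out, 111 bases before the start. Further matches lay 3 bases before the start of NDC80, on the opposite strand, and 247 bases before the start of SPC25. Within 50 bases of the start, a distance chosen after the positions were seen, 8 of 15 called genes held a match, as did 4 of 17 not called lower (23.5%) and 5.05% of all promoters. The 4 were again CENPN, CENPO, CENPW and ZWINT, of which CENPO had a log2 fold change of only -0.31. ZW10 held one 224 bases before its start and CENPC one 90 bases before its start. Among the called genes without these letters in the window were CENPE, CENPI, CENPK, CENPQ, CENPU and SPC24.

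CCAAT was found in 9 of 15 windows of called genes (60%) and 4 of 9 of those that did not pass (44.4%), against 35.7% of all promoters. It was also found in 4 of 7 windows of genes that fell by less (57.1%) and in 9 of 17 not called lower (52.9%). The CHR letters and CCAAT occurred together in 5 of 15 called windows (33.3%), 5 of 17 not called lower (29.4%) and 6.58% of all promoters. The E2F forms searched were TTTCCCGC, TTTGGCGC, TTTCGCGC and TTTGCCGC. A match was found in CENPA, CENPU and OIP5 among the called genes and in CENPS and MIS12 among those that did not pass. These are 3 of 15 windows (20%) and 2 of 9 (22.2%), beside 0 of 7 that fell by less and 3.33% of all promoters. No motif contains another, though neighbouring matches can share bases. These shares describe letters in a window, and binding was not measured.

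**Figure D5:**
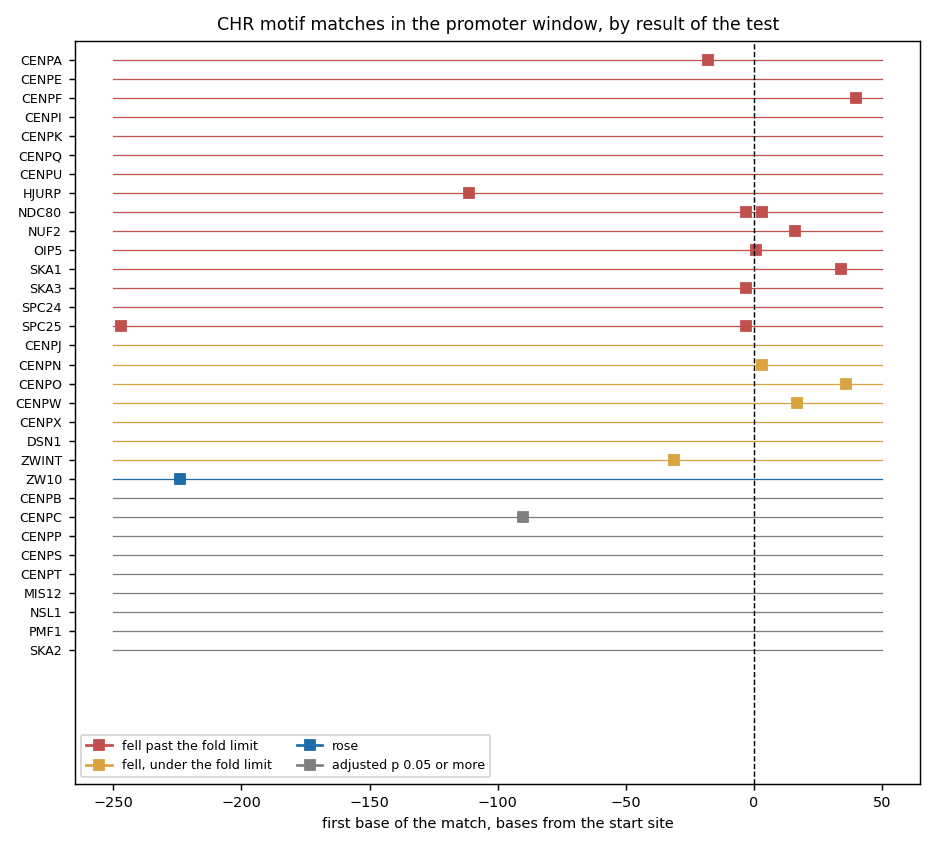
Position of each match to the CHR letters, on either strand, relative to the start site (dashed line, in bases) in the 32 promoter windows, with one line per gene coloured by the result of the edgeR test. In 8 of the 9 genes with a match that fell past the fold limit, one lies within 50 bases of the start, a distance chosen after the positions were seen. The same holds for CENPN, CENPO, CENPW and ZWINT, which fell by less, while the matches in ZW10 and CENPC lie 224 and 90 bases before the start.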

How the data were processed

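RNA-seq of 3 NC and 3 siEIF1 libraries of ARPE-19 cells was analysed, with groups and replicate numbers taken from the sample titles. Reads were trimmed by the authors and mapped with HISAT2 (build GRCh38), and the deposited raw counts are of uniquely mapped reads per gene. They also deposited FPKM values rounded to 2 decimals. The libraries are described as strand-specific, but whether the counting used the strand is not given. The counting program and the annotation are not given in the sources used here either. In GENCODE 44, 7 of the 38 genes overlap another gene on the same strand and 22 one on the opposite strand, so their counts are less certain. In all, 0 columns were left unmatched.

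Counts were fitted with edgeR 4.0.16 in R 4.3.3 (TMM, filterByExpr, quasi-likelihood test, Benjamini-Hochberg adjustment over 16749 genes), with group as the only term. Standard errors were derived from the F statistic. Calls required an adjusted p below 0.05 plus a change of more than 2-fold in either direction. DESeq2 1.42.0 and limma 3.58.1 were alternatives. The fits were tested on simulated data. At 26499929 to 31431479 counts per library, genes with few counts have wide errors. The replicates are described as independent, prepared in parallel and sequenced in a single run.

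The 38 genes, their roles and the other lists were chosen with earlier results of these data known. Named are EIF1, every one of the 38 genes, their read-through rows, and the 5 kinetochore partners with the smallest p-values. The partners PLK1 and ZWILCH are named as well. Full statistics go to called genes, to the extremes of each role and to genes near the fold limit. Promoter sequences are from RefSeq (GRCh38.p14), matched by symbol for 32 genes (CENPJ under its symbol CPAP), and all 32 equal the genome sequence.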

Additional observations from a re-analysis of the deposited data

How the results depend on the processing

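Each of the 38 genes was refitted under other normalizations, count filters, tests, a replicate block and with each library left out. Of 607 refitted fold changes, 579 kept their sign and their side of an adjusted p of 0.05. With limma on log2(FPKM + 1), the genes called lower numbered 2 of 38 (2 in the inner centromere, 0 in the outer kinetochore and 0 in CENPA loading) and the partners 0, with a median log2 fold change of -0.53. The median was -0.88 on log2(FPKM + 0.1), where 16 genes were called, -0.98 with at least 10 counts in every library, which left out OIP5 and so 1 called gene in CENPA loading, and -1.06 with library totals only. With single libraries left out, the median lay between -1.06 and -1.01, the number of genes called lower between 19 and 20, the number that rose between 1 and 2, and CENPJ was called in 1 of the 6 refits, so that the centriole count lay between 0 and 1. The fold change of CENPB turned negative with library totals only (-0.022), on log2(FPKM + 0.1) (-0.017) and log2(FPKM + 1) (-0.016) and with no count filter (-0.0025), and lay between -0.0075 and 0.013 without single libraries. That of SKA2 lay between -0.10 and 0.0071 without single libraries.

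The titles share replicate numbers, but same-numbered libraries deviated together only weakly, with correlations of 0.149, 0.0946 and 0.128, so they were not taken as pairs, although each library correlated best with its own number. With the replicate block, 19 genes were called lower, as without it, and 29 fell, with CENPP (adjusted p = 0.0493) and MIS12 (0.0425) added. Same-numbered libraries are not known to share a culture, and no other call changed under the block. A fold limit of 1.5 gave 25 genes called lower, and an adjusted p limit of 0.01 gave 19. The share of all genes called at these other limits was not taken, so these counts have no background beside them. The cause of these differences was not tested. Genes with under 50 counts per library, such as KNL1 and OIP5, are limited by depth.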
